A study of Mus musculus with 12 samples.

Results

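Toll-like receptors are the germline-encoded sensors through which macrophages detect microbial molecules. The genes described here are 9 receptors of the family, Tlr1, Tlr2, Tlr3, Tlr4, Tlr6, Tlr7, Tlr8, Tlr9 and Tlr13, and Cd14, the co-receptor that hands lipopolysaccharide (LPS) to Tlr4. The 10 genes were chosen by family membership and because Tlr1 had almost no counts in M0 cells and was well counted in M1 cells, out of 24552 gene symbols with a row in the count table. The M1 and M0 values of the 10 genes were therefore used in the choice and are given as a description, with no test. The assay was sequencing of polyadenylated RNA from mouse bone marrow-derived macrophages, cells that differentiate from marrow precursors under the growth factor M-CSF. All 12 cultures were grown for 6 days with M-CSF at 10 ng/ml and then given vehicle (DMSO) or 50 nM ISRIB for 1 h before stimulation, a small molecule that blocks the integrated stress response. M1-like cells then received LPS (10 ng/ml) and interferon-γ (25 ng/ml) for 16 h, with vehicle or ISRIB still present, and M0 is the name the labels give to the other cultures, without saying what those received in that time. The 4 groups (M0 and M1, each with vehicle or with ISRIB) had 3 biological replicates apiece. Strain, sex and age of the mice are not in the labels used here, nor whether replicates came from separate animals, so the spread between replicates is the spread between these cultures.

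Tlr2 pairs at the cell surface with Tlr1 to sense triacylated bacterial lipopeptides and with Tlr6 to sense diacylated ones. Tlr4 senses LPS at the surface, with Cd14 and the protein encoded by Ly96. Tlr3, Tlr7, Tlr8, Tlr9 and, in mice, Tlr13 sit in endosomes and sense nucleic acids. Apart from Tlr3, the receptors signal through the adaptor MyD88 to NF-κB and to interferon regulatory factors; Tlr3 uses TRIF, which Tlr4 uses as well. LPS, part of the M1 stimulus, is thus itself a ligand of this family.

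Tlr1 and Tlr6 are neighbours, and their coding sequences are shown first because they limit how reads can be told apart. In the GENCODE annotation of mouse build GRCm38, Tlr1 lies on chromosome 5 at chr5:64924679-64933563 and Tlr6 at chr5:64952031-64960097, both on the minus strand. The coding sequence of Tlr1 had 2388 bases and that of Tlr6 2421 bases, and 73.0% of their aligned positions were identical. Identity was 59.4% over the first part of the Tlr1 coding sequence, 73.6% over the middle part and 91.3% over the last part, with the sequence cut into 3 equal parts. Of all 50-base stretches of the Tlr1 coding sequence, 19.4% occurred without a mismatch in Tlr6, and of all 100-base stretches 11.3% did. The longest run that both genes share was 229 bases, bases 1468 to 1696 of the Tlr1 coding sequence (chr5:64925537-64925765) and bases 1507 to 1735 of the Tlr6 coding sequence (chr5:64953828-64954056), all of it coding. A read that lies within this run cannot be placed in either gene by its sequence.
Tlr1 and Tlr6: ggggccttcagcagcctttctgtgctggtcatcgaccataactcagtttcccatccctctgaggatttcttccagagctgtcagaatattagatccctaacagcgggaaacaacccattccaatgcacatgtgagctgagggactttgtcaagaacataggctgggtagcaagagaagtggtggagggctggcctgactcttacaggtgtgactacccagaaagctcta
The aligner and its handling of reads with several placements were not given in the sources used here, so counts of Tlr1 and Tlr6 are uncertain to the extent of the shared stretches. No 50-base stretch of Tlr1 occurred in the coding sequence of Tlr2, its partner at the surface, and 50.6% of the aligned positions of Tlr1 and Tlr2 were identical.

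**Figure D1:**
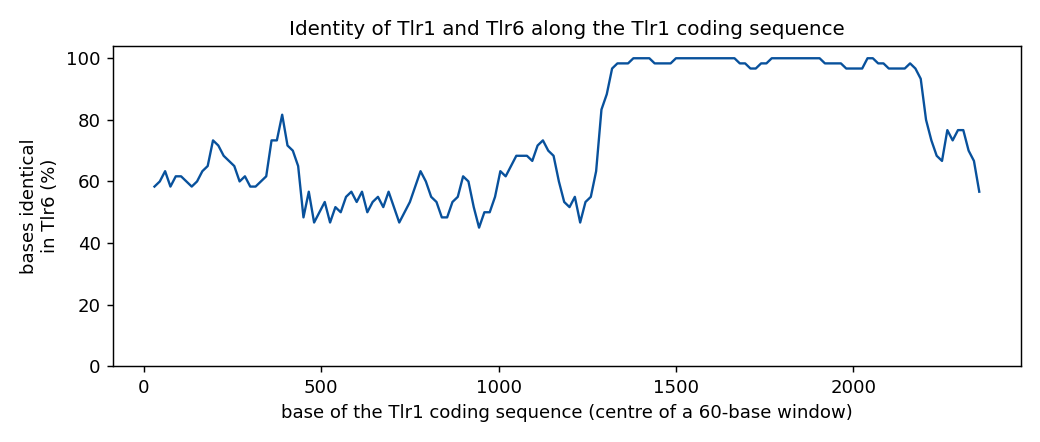
Percentage of bases of the Tlr1 coding sequence that are identical in the aligned Tlr6 coding sequence, in 60-base windows (y axis), against the centre of the window in the Tlr1 coding sequence (x axis, bases). The line stays near the top of the scale through most of the last part of the sequence and is lower before it, as in the identities of 59.4%, 73.6% and 91.3% for its 3 equal parts.

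The sequences upstream of both genes differ, although the genes lie side by side. The RefSeq promoter table (GRCm38.p6) listed 7 of the 10 genes, and for Tlr1 and Tlr6 the part of the outermost window that lies before the first annotated exon is printed here, because the genes share coding sequence while their counts lay far apart. Each window was searched on both strands for an NF-κB motif (GGGANNNNCC), an interferon-stimulated response element (GAAANNGAAA) and the PU.1 motif of myeloid genes (GAGGAAGT). Capitals mark a match. The Tlr1 stretch, chr5:64933564-64933808 on the minus strand, is 245 bases long.
Tlr1: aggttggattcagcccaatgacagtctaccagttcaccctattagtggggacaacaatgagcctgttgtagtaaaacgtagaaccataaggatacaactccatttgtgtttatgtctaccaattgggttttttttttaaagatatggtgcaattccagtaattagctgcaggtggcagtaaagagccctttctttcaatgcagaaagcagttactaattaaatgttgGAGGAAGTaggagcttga
The Tlr6 stretch, chr5:64960098-64960298 on the minus strand, is 201 bases long.
Tlr6: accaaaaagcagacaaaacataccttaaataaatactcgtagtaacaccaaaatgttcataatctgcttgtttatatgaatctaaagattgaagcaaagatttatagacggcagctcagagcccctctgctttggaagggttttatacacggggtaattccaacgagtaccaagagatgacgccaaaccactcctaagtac
The Tlr1 stretch held 1 match, to the PU.1 motif, and the Tlr6 stretch held 0. Of 32851 promoter windows in the RefSeq table, 3.20% held that PU.1 motif, 20.7% the NF-κB motif and 3.44% the response element. The table lists a window further in for each gene, in which Tlr6 had 2 matches to the response element and Tlr1 had 0. Over the whole windows of the other listed receptors, Tlr2 had 2 matches and Tlr3 had 3 matches, all to the NF-κB motif, Tlr9 had 1 match to the PU.1 motif, and Tlr8 and Tlr13 had 0. A match is a description of letters only, and binding was not measured.

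Libraries held 439976 to 514037 counts, so that 1 count was worth 1.79 to 2.57 CPM (the count scaled to a common library size by TMM). Of counts between 1 and 20, 64.9% over all symbols were even numbers. Among the members other than Tlr1, 56 of 65 counts above 0 were even, so that small counts may come in steps of 2. The counts of Tlr1 itself did not show this, as 2 of its 7 counts above 0 were even. The libraries were strand-specific, but the strand setting of the counting is not given in the sources used here. With a setting opposite to that of the kit, the counts of a symbol would be reads from the other strand. A low count of a receptor therefore cannot be read as low expression, nor the M1 counts of Tlr1 as Tlr1 RNA. Whether the setting matched was not tested. The 5795 symbols whose exons overlap an exon on the opposite strand held 84.3% of all counts. Of the 10 genes, Tlr3 had such an overlap, of 381 bases with Gm45542, and the nearest gene on the strand opposite to Tlr1, Fam114a1, was 36508 bases away. Among the 18235 symbols without such an overlap, which held 7.07% of all counts, Tlr1 ranked 36 by its mean count in M1 libraries (105.5), and 82 of them had a mean of 50 or more. All 8 listed macrophage markers had counts, which summed to 209 to 454 in M0 and 79 to 249 in M1 libraries. They did not move together: in vehicle, Lyz2 was at 526 CPM in M0 and 109 in M1 and Csf1r at 108 and 43.4, while Adgre1 was at 21.8 and 69.7, Itgam at 17.7 and 79.7 and Fcgr1 at 3.62 and 65.04. Lists of T cell, B cell, neutrophil and fibroblast markers summed to at most 13 counts in a library. The dendritic cell list summed to 6 to 19 counts in M0 and 325 to 434 in M1 libraries, nearly all of it from Xcr1, a chemokine receptor, while Flt3 and Zbtb46 were at 0 in every library. The part of these differences in the results was not tested, and in RNA from whole cultures fewer cells of a type and less RNA per cell cannot be told apart.

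Tlr1, the surface receptor for triacylated lipopeptides in its pair with Tlr2, was the member with counts in M1 cells and almost none in M0 cells. Its counts were 0, 0 and 0 in vehicle M0 and 83, 105 and 111 in vehicle M1. Under ISRIB they were 0, 2 and 0 in M0 and 103, 130 and 101 in M1. The 6 M1 libraries lay together, every M0 library was at or near 0, and the groups did not overlap in either arm. In CPM, Tlr1 was at 248 ± 34.96 (SD, n = 3) in vehicle M1 and 262 ± 27.9 (SD, n = 3) in ISRIB M1. Against a floor of 3 counts in each M0 library, which stands for the level that a count of 0 allows, Tlr1 was at least 43.8-fold higher in M1 than in M0 in vehicle and at least 45.4-fold higher under ISRIB. TMM factors were above 1 in every M0 and below 1 in every M1 library, and with libraries scaled to their total count alone these bounds were 35.6 and 37.2. If counts come in steps of 2, a count of 0 allows a floor of 6, and the bounds were then 21.9 and 22.7. The 6 M1 libraries ran from 208 to 292 CPM, a ratio of 1.40 between the highest and the lowest.

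**Figure D2:**
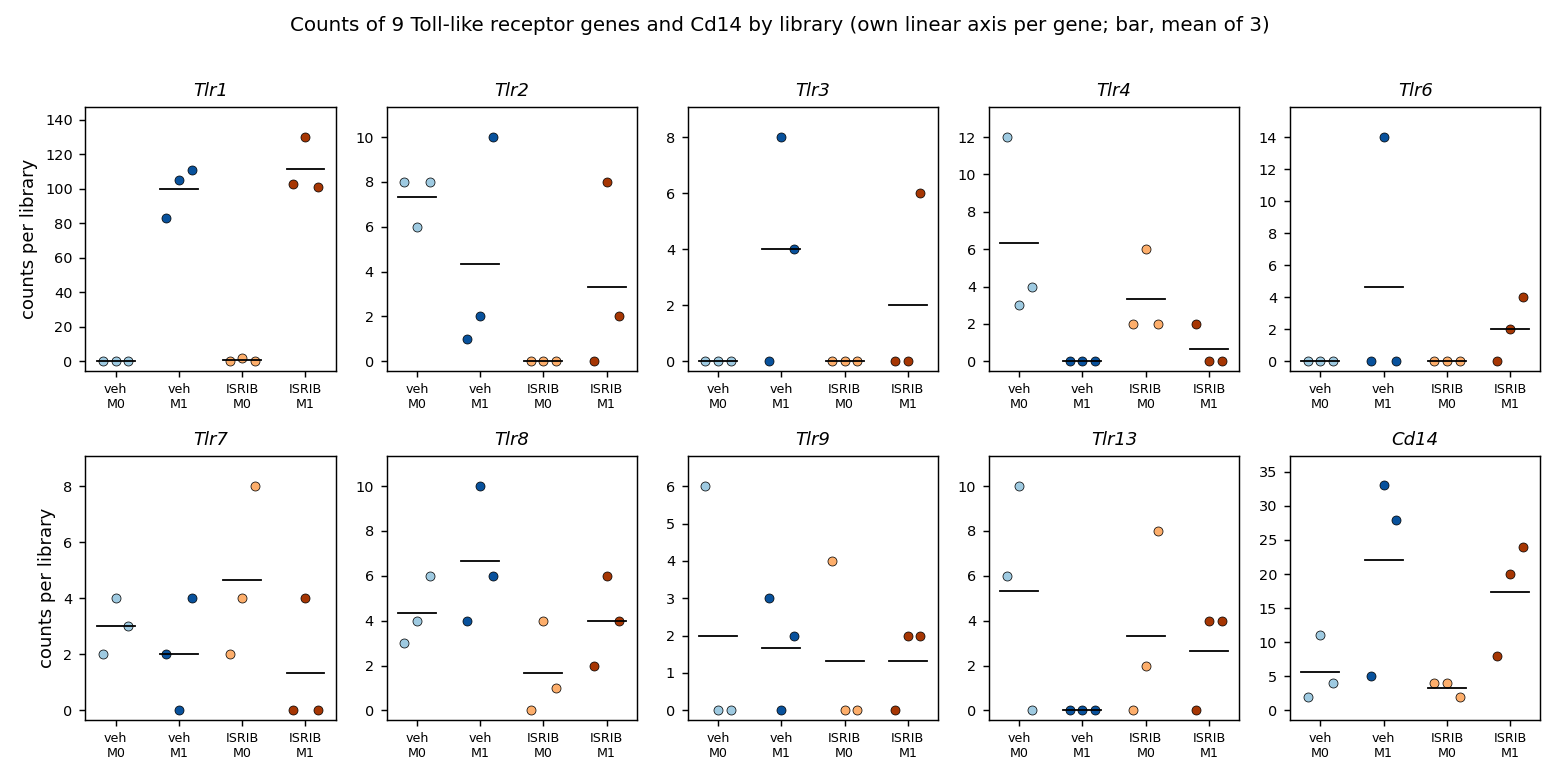
Counts of each of the 10 genes (y axis, counts per library, a linear axis of its own for each gene) in the 12 libraries by group (x axis); a point is a library and a bar the mean of 3. Tlr1 sits at 83 to 130 in the M1 libraries and at 0 to 2 in the M0 libraries, while no other receptor exceeds 14 counts.

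Cd14, the LPS co-receptor, was the other member with more than a few counts. It was counted 2, 11 and 4 times in vehicle M0 and 5, 33 and 28 times in vehicle M1, and 4, 4 and 2 times in ISRIB M0 and 8, 20 and 24 times in ISRIB M1. Replicate 1 was the lowest of the M1 libraries in both arms. The vehicle groups overlapped through that library and vehicle M0 replicate 2, and the ISRIB groups did not overlap. Levels with vehicle were 10.5 ± 8.25 CPM in M0 and 54.9 ± 37.7 in M1, and with ISRIB 6.45 ± 2.40 in M0 and 40.4 ± 18.5 in M1 (SD, n = 3 each). The mean in M1 was 5.23 times that in M0 in vehicle and 6.26 times under ISRIB, and the fitted log2 fold changes were 2.35 ± 0.74 and 2.61 ± 0.79 (SE). Single libraries moved the vehicle value, to 1.90 without vehicle M1 replicate 2 and to 3.18 without vehicle M0 replicate 2. The 6 M1 libraries ran from 12.5 to 84.8 CPM, a ratio of 6.77, against 1.40 for Tlr1. Cd14 rested there on 5 to 33 counts in a library and Tlr1 on 83 to 130. Sampling of small counts widens such a ratio, so the 2 ratios do not compare the spread between cultures. Cd14 and Tlr1 were the 2 of 10 members that passed the filter on low counts, and both passed through their M1 libraries.

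The surface partners of Tlr1 and Cd14 had few counts. Tlr2, with which Tlr1 forms its receptor, had counts of 8, 6 and 8 in M0 and 1, 2 and 10 in M1 with vehicle, and of 0, 0 and 0 in M0 and 0, 8 and 2 in M1 with ISRIB. The M0 and M1 groups overlapped in both arms. The difference of Tlr2 between ISRIB and vehicle in M0 cells is given with its test below. Tlr4, the LPS receptor that Cd14 serves, had counts of 12, 3 and 4 in M0 and 0, 0 and 0 in M1 with vehicle, and of 2, 6 and 2 in M0 and 2, 0 and 0 in M1 with ISRIB. All 3 vehicle M0 libraries were above the vehicle M1 libraries, at counts so small that a count of 3 and a count of 0 are not distinguishable, and under ISRIB the groups overlapped. Over both arms Tlr4 had 29 counts in 6 M0 libraries and 2 in 6 M1 libraries, a direction opposite to that of Tlr1 and Cd14. Tlr6, the neighbour of Tlr1 with the shared run printed above, was at 0 in every M0 library, and its M1 counts were 0, 14 and 0 with vehicle and 0, 2 and 4 with ISRIB. Of its 20 counts, 14 came from vehicle M1 replicate 2, which had 105 counts of Tlr1, and the other M1 libraries had between 83 and 130 counts of Tlr1 and at most 4 of Tlr6.

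Of the endosomal receptors, none had more than 10 counts in a library. Tlr3, the receptor for double-stranded RNA, was at 0 in all 6 M0 libraries, and its M1 counts were 0, 8 and 4 with vehicle and 0, 0 and 6 with ISRIB. All 18 of its counts thus came from M1 libraries, in 3 of the 6. Without the strand setting of the counting, reads of Tlr3 and of Gm45542 on the opposite strand cannot be told apart where they overlap. Tlr7 and Tlr8, neighbouring genes on chromosome X that sense single-stranded RNA, differed in their totals. Tlr7 had 23 counts in M0 and 10 in M1, and Tlr8 had 18 in M0 and 32 in M1, with overlapping groups in both arms for each. Tlr8 had counts in 11 of 12 libraries, the most of any receptor here, yet its highest count was 10. Tlr9, the sensor of unmethylated CpG DNA, had 10 counts in M0 and 9 in M1. Tlr13, which senses bacterial ribosomal RNA, had counts of 6, 10 and 0 in M0 and 0, 0 and 0 in M1 with vehicle, and of 0, 2 and 8 in M0 and 0, 4 and 4 in M1 with ISRIB. The vehicle groups of Tlr13 overlapped at 0.

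Of the 10 members, Tlr1 and Cd14 were thus higher in M1 without overlap under ISRIB, Tlr1 alone in vehicle, and Tlr4 was lower without overlap in vehicle. Since these values chose the genes, nothing is read from the counts of members. Among all symbols with a count in the arm, groups did not overlap with M1 higher for 7.97% and with M1 lower for 12% in vehicle, and for 8.58% and 10.8% under ISRIB. The share of the 2356 tested genes called with edgeR at an adjusted p under 0.05 was 24.3% higher and 20.5% lower in M1 in vehicle, and 23.9% higher and 20.9% lower under ISRIB. Scaled to the total count alone, the median log2 fold change of all tested genes moved from 0.01 to -0.29 in vehicle and from -0.01 to -0.30 under ISRIB, and the share of calls that were higher fell from 54.2% to 41.3% and from 53.4% to 39.4%. The 8 receptors other than Tlr1 summed to 53.1 ± 13.7 CPM in M0 and 58.3 ± 31.4 in M1 cells with vehicle, 27.1 ± 9.63 in ISRIB-treated M0 cells and, last, 39.96 ± 26.2 in the ISRIB-treated M1 cells (SD, n = 3 each). These sums rested on 4 to 37 counts in a library and overlapped between M0 and M1 in both arms. Tlr1 made up 75.5% to 89.2% of the counts of the 9 receptors in the vehicle M1 libraries and 82.1% to 96.3% in the ISRIB M1 libraries.

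The genes were ranked by level only per length, as CPM per kilobase of annotated exon. The shares of Tlr1 given above are of counts and were not scaled to length. In vehicle M1, Tlr1 stood first at 74.2 ± 10.4 CPM per kilobase and Cd14 next at 31.7 ± 21.8 (SD, n = 3). Tlr8 followed at 4.66 ± 2.26, Tlr2 at 3.50 ± 3.90, Tlr6 at 3.22 ± 5.57 and Tlr3 at 1.93 ± 1.98 CPM per kilobase. Tlr7 was at 1.19 and Tlr9 at 1.18 CPM per kilobase, and Tlr4 and Tlr13 were listed at 0. From Tlr8 to Tlr9, neighbours in this order differed by less than their SD. In vehicle M0 the order was led by Cd14 at 6.06 ± 4.77 and Tlr2 at 4.62 ± 0.94 CPM per kilobase, which overlapped. Tlr8, Tlr13 and Tlr4 lay between 2.14 and 2.31 CPM per kilobase, Tlr7 and Tlr9 at 1.38 and 1.07, and Tlr1, Tlr3 and Tlr6 at 0. Tlr1 thus stood among the members at 0 in M0 and was the highest of the 10 in M1. In ISRIB M1 the order again opened with Tlr1 at 78.3 ± 8.35 and Cd14 at 23.3 ± 10.7 CPM per kilobase, with all other members at or under 2.59. In ISRIB M0 no member exceeded the 3.72 CPM per kilobase of Cd14.

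**Figure D3:**
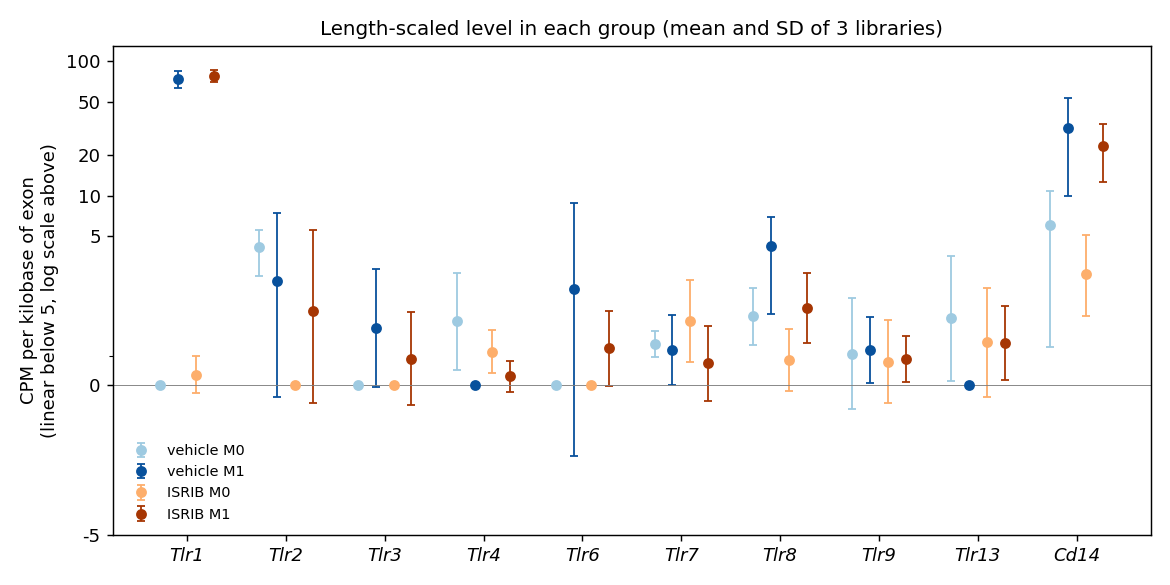
Level of each of the 10 genes in CPM per kilobase of exon (y axis, linear below 5 and a log scale above it) in the 4 groups; a point is the mean and a bar the SD of 3 libraries, and bars reach below 0 where the SD exceeds the mean. Tlr1 at 74.2 and 78.3 and Cd14 at 31.7 and 23.3 in the M1 groups lie above every other receptor, all of which stay under 5.

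The study's treatment, ISRIB, was not part of the choice of genes, so it was tested. The comparison asks whether blocking the integrated stress response moved the receptors in M0 or in M1 cells, or altered their difference between M1 and M0. In M1 cells the log2 fold change of Tlr1 between ISRIB and vehicle was 0.08 ± 0.28 (SE; adjusted p = 0.993 by Benjamini-Hochberg in edgeR's quasi-likelihood fit). Its 95% interval ran from -0.51 to 0.66, so 0 and the other log2 differences within that range are compatible with these counts. In M0 cells Tlr1 was at or under the floor in both arms, so no fold is given. Cd14 differed between ISRIB and vehicle by -0.44 ± 0.67 (SE) on the log2 scale in M1 cells, with an adjusted p of 0.983 (edgeR, Benjamini-Hochberg) and an interval from -1.82 to 0.95. In M0 cells the Cd14 difference was -0.70 ± 0.84, with an adjusted p of 0.998 (edgeR, Benjamini-Hochberg) and an interval from -2.43 to 1.04. The interaction for Cd14, the M1 difference less the M0 difference, was 0.26 ± 1.02 with an adjusted p of 0.985 (edgeR, Benjamini-Hochberg) and an interval from -1.84 to 2.37. The Cd14 intervals are wide and include both a halving and, in the M0 cells and the interaction, a doubling. Differences of that size are therefore compatible with these counts.

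**Figure D4:**
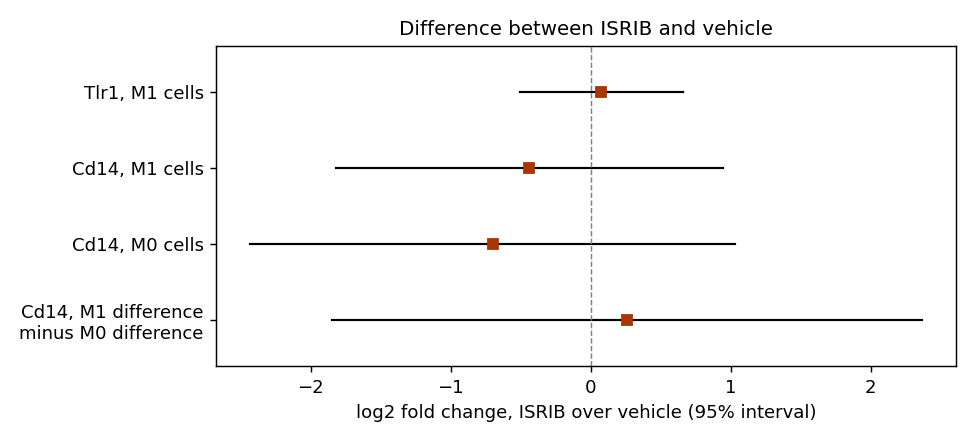
Log2 fold change of ISRIB over vehicle with its 95% interval (x axis) for Tlr1 and Cd14 in M1 cells, for Cd14 in M0 cells and for the difference of the Cd14 differences (y axis). Every interval includes 0, that of Tlr1 is the narrowest at -0.51 to 0.66, and the Cd14 interaction is the widest at -1.84 to 2.37.

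No member was called in any of the 3 ISRIB comparisons, against 0% of the 2356 tested genes in M1 cells, 0% in M0 cells and 0% for the interaction. At an unadjusted p under 0.05, edgeR gave 134 genes in M1 cells, 143 in M0 cells and 167 for the interaction, none of them a member. DESeq2's Wald test called 0 genes in M1 cells, 3 in M0 cells and 0 for the interaction, again no member. The 8 receptors under the filter could be fitted only with the filter removed, over 10978 genes. With the filter removed, edgeR called 0 genes in M1 cells, 10 in M0 cells and 9 for the interaction, none of them a member. In that fit the smallest p of a member was that of Tlr2 in M0 cells, whose counts were 8, 6 and 8 in vehicle and 0, 0 and 0 under ISRIB. Its unadjusted p was 0.00131 and its adjusted p 0.422 (edgeR, Benjamini-Hochberg), so it did not pass. Tlr13 in M1 cells, with counts of 0, 0 and 0 in vehicle and 0, 4 and 4 under ISRIB, had an unadjusted p of 0.0262 and an adjusted p of 0.820 (edgeR, Benjamini-Hochberg). For the interaction, Tlr2 had an unadjusted p of 0.0131 and Tlr13 of 0.0343, both with an adjusted p of 0.952 (edgeR, Benjamini-Hochberg). Both genes are described by counts of at most 10.

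The genes whose CPM over the 12 libraries was most like that of Tlr1 were looked up among the 2356 tested genes by Pearson's r of log2 CPM, a description with no test. They were Phrf1 (r = 0.996), Med7 (r = 0.996), Cxcl9 (r = 0.994), Parp9 (r = 0.993) and Tnfrsf8 (r = 0.993). The 12 libraries fall into M0 and M1, so r here mostly restates that a gene differs between these states, and 173 genes had an r over 0.95. Cxcl9, a chemokine induced by interferon-γ, had 0 counts in all M0 libraries and 78 to 112 in M1 libraries, near the range of Tlr1. Phrf1 had 0 to 2 counts in M0 and 217 to 332 in M1 libraries. Parp9, by contrast, was already counted 228 to 330 times in M0 libraries and 977 to 1336 times in M1 libraries. Cd14, the other member that passed the filter, had an r of 0.809 with Tlr1, on 2 to 33 counts in a library. Within the M1 libraries alone, r with Tlr1 was 0.63 for Cd14 and 0.38 for Med7. It was -0.15 for Parp9, -0.47 for Phrf1, -0.54 for Tnfrsf8 and -0.62 for Cxcl9, so the order over the 12 libraries did not hold within M1.

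The rest of the pathway was followed with a list of 63 genes that are not members: the 3 other mouse receptors, accessory proteins, adaptors, kinases and ubiquitin ligases, transcription factors and inhibitors. Of these, 8 had no count in any library, 49 never exceeded 10 counts and 10 were tested. Tlr5, Tlr11 and Tlr12 were at 0 in all 12 libraries, and no kinase or ubiquitin ligase of the list could be tested. Of the 10 tested genes, 7 were higher and 0 lower in M1 in vehicle, and 4 were higher and 0 lower under ISRIB (edgeR, Benjamini-Hochberg), beside 24.3% and 23.9% of all tested genes that were higher. The median log2 fold change of the 10 was 1.59 in vehicle and 1.47 under ISRIB, against 0.01 and -0.01 over all tested genes. Pik3ap1, Irf7, Nfkbia and Socs3 passed the filter only through their M1 libraries and so had to be higher there. They are all 4 of the genes called under ISRIB with the filter. These counts of calls and the medians of the 10 genes therefore do not describe the list as a whole. The p-values of these 4 genes in the filtered fit share that limit. With no filter, over 10978 genes, 6 genes of the list were called in vehicle and 5 under ISRIB. Over all genes of that fit, 1013 were called in vehicle and 984 under ISRIB. The ISRIB calls of the list were Pik3ap1, Irf7, Nfkbia, Socs3 and a gene that is not among the 10 tested with the filter. The name and direction of that gene are not given here, so the 5 calls are not a count of genes that were higher. Not every gene of the list had more counts in M1. Rela, which did not pass the filter, was lower there under ISRIB, with counts of 6, 22 and 12 in M0 and 0, 0 and 2 in M1. Adjusted p-values of Pik3ap1, Irf7, Nfkbia and Socs3 in the fit with no filter are given with each. With vehicle libraries alone, 4 genes were higher, as the other 3 called genes were not in the smaller set of genes then tested. ISRIB changed 0 of the 10 in M1 cells, in M0 cells and in the interaction (edgeR, Benjamini-Hochberg). At an unadjusted p under 0.05 stood Dusp1 in M0 cells, at 1.63 on the log2 scale (adjusted p = 0.561), and Nfkb2 for the interaction, at -0.59 (adjusted p = 0.684, edgeR, Benjamini-Hochberg).

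Among adaptors, the only gene with enough counts was Pik3ap1, which links receptors to phosphoinositide 3-kinase. It had counts of 12, 0 and 2 in vehicle M0 and 29, 11 and 23 in vehicle M1, groups that overlapped. It rose by 2.53 ± 0.86 (log2, SE) in vehicle (adjusted p = 0.0184) and by 3.06 ± 0.87 under ISRIB (adjusted p = 0.00575, edgeR, Benjamini-Hochberg). With no filter its adjusted p was 0.00741 in vehicle and 0.000508 under ISRIB (edgeR, Benjamini-Hochberg). The vehicle call was lost without vehicle M0 replicate 2 (adjusted p = 0.0716), vehicle M0 replicate 3 (0.0686) or vehicle M1 replicate 1 (0.0728), and the log2 fold change ranged from 1.96 to 4.60 over single libraries left out.

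Among transcription factors, Irf7, which drives type I interferon genes, had counts of 2, 5 and 0 in vehicle M0 and 41, 31 and 72 in vehicle M1, and 0, 4 and 1 and then 42, 58 and 51 under ISRIB. It rose in M1 by a log2 fold change of 4.68 ± 0.64 in vehicle (adjusted p = 1.18e-06) and 5.11 ± 0.67 under ISRIB (adjusted p = 6.44e-07, edgeR, Benjamini-Hochberg). With no filter its adjusted p was 3.54e-12 in vehicle and 2.17e-13 under ISRIB (edgeR, Benjamini-Hochberg). Its exons overlap those of Phrf1 on the opposite strand by 45 bases, and the counts of Phrf1 in M0 and M1 libraries are given above. Nfkb2, the precursor of the NF-κB subunit p52, had counts of 123, 142 and 99 in vehicle M0 and 182, 169 and 154 in vehicle M1, without overlap. It rose by 0.88 ± 0.19 in vehicle (adjusted p = 0.000529) and differed by 0.29 ± 0.19 under ISRIB (adjusted p = 0.227, edgeR, Benjamini-Hochberg). On the opposite strand, AC114539.1 shares 531 exon bases with Nfkb2 and Psd shares 299. Psd had 1014 to 1087 counts in vehicle M0 and 1992 to 2191 in vehicle M1, many more than Nfkb2. Irf5, a factor downstream of MyD88, had counts of 533, 474 and 453 in vehicle M0 and 462, 445 and 473 in vehicle M1, and its log2 fold change was 0.32 ± 0.12 (adjusted p = 0.0318) in vehicle and 0.27 ± 0.12 under ISRIB (adjusted p = 0.0710, edgeR, Benjamini-Hochberg). That call rested on the scaling: with the total count alone, the log2 fold change of Irf5 in vehicle was 0.02, with an adjusted p of 0.910. It was also lost without the filter (adjusted p = 0.480) and without any of 5 vehicle libraries, M0 replicates 2 and 3 and M1 replicates 1 to 3, with adjusted p from 0.0588 to 0.122. Irf5 shares 411 exon bases with Tnpo3 on the opposite strand.

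Among inhibitors, Nfkbia, which encodes the NF-κB inhibitor IκBα, had counts of 0, 0 and 0 in vehicle M0 and 6, 6 and 24 in vehicle M1, at least 5.18-fold higher (adjusted p = 0.000606 with the filter and 0.000237 without, edgeR, Benjamini-Hochberg). Without vehicle M1 replicate 3 that bound was 2.71. Under ISRIB its counts were 0, 1 and 0 in M0 and 10, 13 and 10 in M1, at least 4.48-fold higher (adjusted p = 0.00301 with the filter and 0.00386 without, edgeR, Benjamini-Hochberg). Socs3, which restrains cytokine receptor signalling, was at 0 in every M0 library, and its M1 counts were 8, 11 and 6 with vehicle and 2, 14 and 11 with ISRIB. It was at least 3.69-fold higher in vehicle (adjusted p = 0.00292) and at least 3.59-fold higher under ISRIB (adjusted p = 0.00312), and with no filter its adjusted p was 0.00327 and 0.00334 (edgeR, Benjamini-Hochberg). With a floor of 6 the bounds of Nfkbia were 2.59 and 2.24 and those of Socs3 1.84 and 1.80. Dusp1, a phosphatase that switches off MAP kinases, had counts of 5, 4 and 7 in vehicle M0 and 9, 20 and 33 in vehicle M1, and 17, 21 and 12 and then 24, 44 and 17 under ISRIB. It rose in vehicle by 2.31 ± 0.60 (adjusted p = 0.00275) and differed by 1.04 ± 0.53 under ISRIB (adjusted p = 0.116, edgeR, Benjamini-Hochberg), and the interaction of Dusp1 did not pass. Nfkbia and Socs3, like Tlr1, were at or near 0 in every M0 library.

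Of the accessory proteins, 3 of 8 could be tested and 0 were called. Unc93b1, the chaperone that carries endosomal receptors to their compartment, differed between M1 and M0 by a log2 fold change of 0.67 ± 0.62 in vehicle (adjusted p = 0.401) and 1.53 ± 0.67 under ISRIB (adjusted p = 0.0656, edgeR, Benjamini-Hochberg). Hsp90b1, the folding chaperone of most of the receptors, differed by 0.74 ± 0.44 in vehicle (adjusted p = 0.178) and 0.59 ± 0.43 under ISRIB (adjusted p = 0.285, edgeR, Benjamini-Hochberg). Its exons share 415 bases with 1810014B01Rik on the opposite strand. Cd36, a scavenger receptor that works with the pair of Tlr2 and Tlr6, differed by 0.69 ± 1.02 in vehicle (adjusted p = 0.611) and 1.41 ± 1.15 under ISRIB (adjusted p = 0.335, edgeR, Benjamini-Hochberg).

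**Figure D5:**
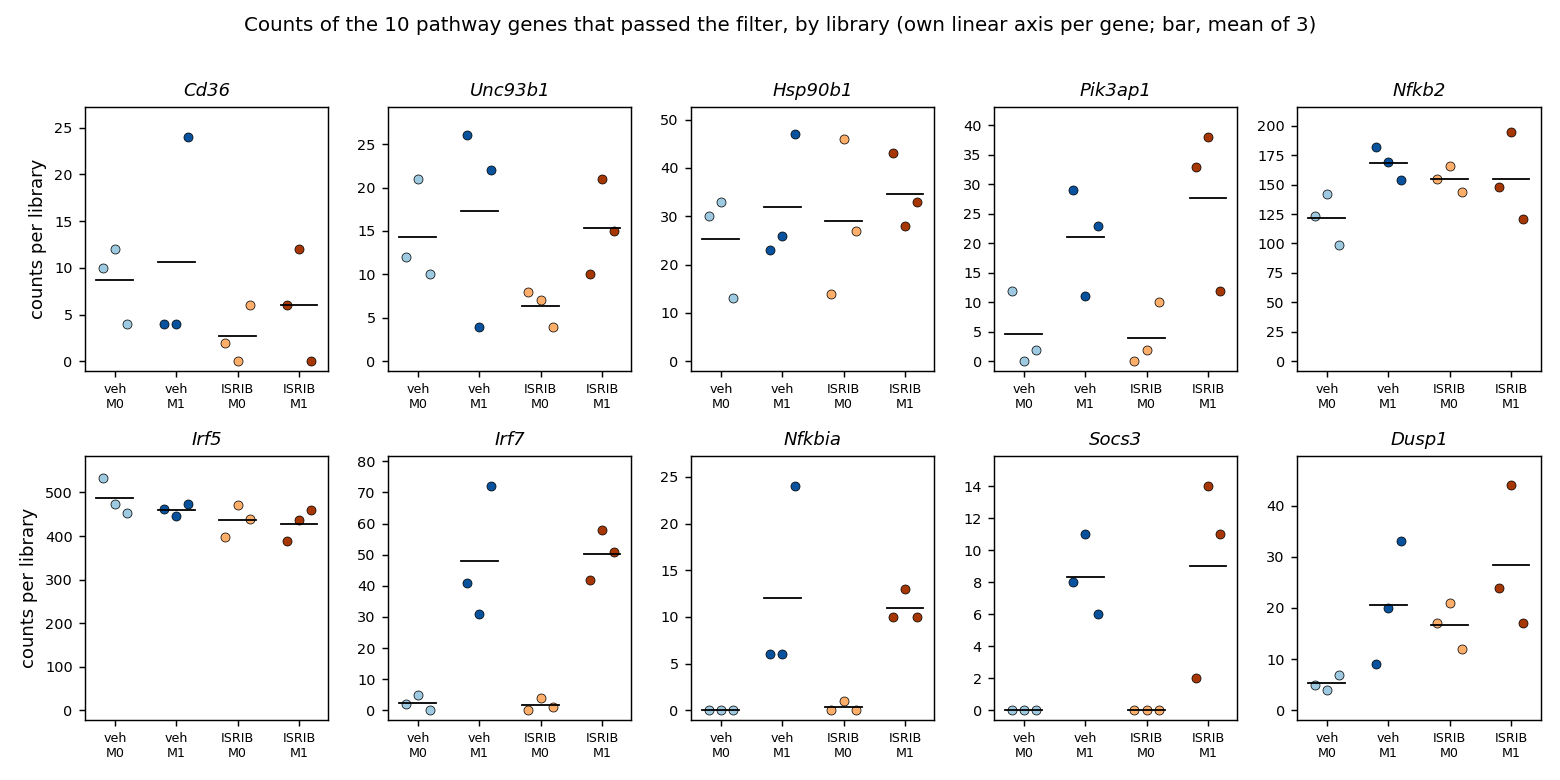
Counts of the 10 tested genes of the pathway list (y axis, counts per library, a linear axis of its own for each gene) in the 12 libraries by group (x axis); a point is a library and a bar the mean of 3. Nfkbia, Socs3 and Irf7 sit at 0 to 5 in M0 libraries and at 2 to 72 in M1 libraries, while Irf5 lies between 388 and 533 in all 12.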

How the data were processed

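The authors deposited whole-number counts per gene symbol for 12 samples and a table of log2 values, which equal log2 of the count over a library factor (0.807 to 1.22) plus 1 to within a relative 3.56e-09. Per the submitters' processing notes, FastQC, HTSeq and DESeq2 were used with mm10; the strand setting of the counting is not given in the sources used here, while the libraries were strand-specific per the labels' protocols. The deposited counts were tested here with edgeR 4.0.16 (R 4.3.3; limma 3.58.1): filterByExpr (minimum count 10, minimum total 15) kept 2356 genes with 97.6% of all counts, followed by TMM, a mean per group over all 12 samples and quasi-likelihood tests, with Benjamini-Hochberg adjustment over all tested genes at 0.05. The common biological coefficient of variation was 0.275. The steps were tested on simulated data. Intervals are at 95%, and floors of 3 counts and intervals cover counting error or library spread only, since reads had no molecular identifiers.

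The members and lists were chosen with earlier results of these data known. Pathway genes were named per role, up to 4 called genes by size of change in vehicle, with the tested accessory genes added after their values were seen. Alternatives were DESeq2 1.42.0 (size factors and Wald test), no filter, limma on the log2 values, only the compared groups, a replicate block, each library left out and, chosen after seeing the data, halved counts, total-count scaling and a doubled floor. Replicates differed by more than sampling noise (chi-square per degree of freedom 4.13 to 6.05). Annotation was GENCODE M21 (24030 symbols matched), and promoters came from RefSeq.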

Additional observations from a re-analysis of the deposited data

How the results depend on the processing

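No ISRIB comparison called a member under any alternative, but all 10 members were tested only with no filter. The other settings tested at most 2 members, Tlr1 and Cd14. With only the compared groups fitted, 0 members were tested in M0 cells, so that setting could not call any, though it was graded the same. Of the settings other than leaving out a library, 143 values were graded the same, 4 moved and 3 were weaker. The grade of the same also took in lower bounds and list counts that shifted. An example is 5 called genes of the list in vehicle with halved counts, against 7. Tlr1's lower bounds moved to 35.6-fold (vehicle) and 37.2-fold (ISRIB) with libraries scaled to the total count alone, chosen after seeing the data, and to 21.9-fold and 22.7-fold with the floor doubled, also chosen after seeing the data; they otherwise ranged from 41.3 to 47.8 and from 43.4 to 47.5. The pathway list had 4 higher genes in vehicle with only the compared groups fitted, against 7, since fewer genes were tested. Leaving out single libraries gave 5 to 7 genes in vehicle and 3 to 7 under ISRIB, against 4, with 7 reached without vehicle M1 replicate 2. Leaving out single libraries turned the direction of ISRIB differences that did not pass the test: Tlr1 in M1 ranged from -0.038 to 0.14 (log2), Cd14 in M1 from -0.91 to 0.017, Cd14 in M0 from -1.08 to 0.14 and the Cd14 interaction from -0.58 to 0.71. Over all tested genes, samples with the same replicate number deviated together little (correlations of -0.0600 to 0.113), and the main fit did not take the numbers as pairs. Such correlations do not show that the samples are unpaired. Within a replicate number the library names ran in sequence over the 4 groups, and what that sequence stands for is not given. With the replicate block, the pathway counts were 7 and 4, 0 members were called, and the ISRIB differences in M1 were 0.08 for Tlr1 and -0.29 for Cd14. With halved counts 1607 genes were tested, without Nfkbia and Socs3. Every receptor but Tlr1 had counts of 14 or fewer, which limits what can be said of them.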
